A study of Rattus norvegicus with 3 samples.

Results

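The insulin-like growth factor system was described through 10 genes: the ligands Igf1 and Igf2, the receptors Igf1r and Igf2r, and the binding proteins Igfbp2, Igfbp3, Igfbp4, Igfbp5, Igfbp6 and Igfbp7. They were taken by symbol from the 30957 genes listed for each library, all 10 were found on 1 row each, and all 10 passed the minimum of a mean of 1 FPKM (fragments per kilobase of gene and 1000000 fragments). The libraries hold messenger RNA from motor cortex, each of 1 male rat of the Sprague-Dawley strain, numbered 19, 35 and 70, after cerebral ischemia and reperfusion, in which the blood supply of the brain is interrupted and then restored. The rats form 1 group. A time of 8 weeks is given for all 3, without saying whether it is their age or the time since the operation, and the sources used here do not give how the ischemia was made or how long it lasted. No control group was analysed here. The genes were selected on their FPKM levels in these same rats, so the values below are a description and no test was made on them.

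Insulin-like growth factors are small secreted proteins related to insulin that promote the survival and growth of cells. Both ligands signal through the tyrosine kinase receptor encoded by Igf1r, while the receptor encoded by Igf2r, which also sorts lysosomal enzymes carrying mannose 6-phosphate, takes up the Igf2 protein for degradation. The binding proteins hold the ligands outside the cell, where they can keep them from the receptor or carry them to it, and proteases release the ligands again. In the adult brain Igf2 is known for its expression in meninges, choroid plexus and vessel walls, and microglia and macrophages are known to make Igf1 after injury.

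The libraries held 15561621, 16460584 and 16049597 fragments in rats 19, 35 and 70 after the authors' normalization, as read from the steps between low FPKM values, and the order 19, 35 and 70 is kept for all values of 3 rats. Rat 35 stood apart from the others in its cell type markers. All 8 neuronal markers were lowest there, with summed levels of 1268, 54.1 and 1603 FPKM. All 8 phagocyte markers were highest there, with summed levels of 675, 8874 and 836 FPKM. Of all genes that passed the minimum, 36.5% were lowest and 45.4% highest in rat 35. In bulk tissue, fewer cells of a type and less RNA per cell cannot be told apart.

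On average, the binding proteins Igfbp7 and Igfbp2 were the most abundant transcripts of the system and the receptor Igf1r the least. Igfbp7 averaged 229 ± 134 FPKM and Igfbp2 198 ± 184 FPKM (SD, n = 3), against 37.5 ± 26.7 FPKM for Igf2, 21.9 ± 29.5 FPKM for Igf1, 14.1 ± 6.58 FPKM for Igf2r and 3.49 ± 1.15 FPKM for Igf1r. Igfbp2 and Igfbp7 took the first 2 places in every rat, ahead of the other 8 genes. In the order of the means, only the last step, from Igfbp3 at 6.61 ± 2.31 FPKM to Igf1r, was larger than the larger SD of its 2 genes. Every other pair of neighbours in that order differed by less than the spread between rats, and only Igfbp2 over Igf2 among those pairs had the same order in all 3 rats.

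**Figure D1:**
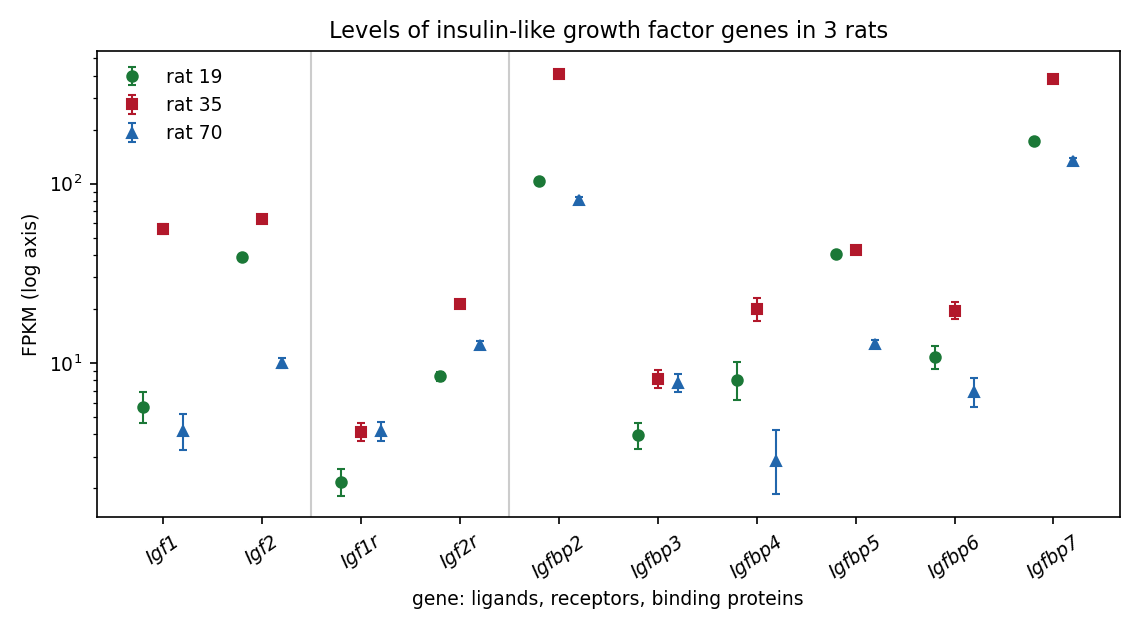
FPKM of the 10 genes in rats 19, 35 and 70 on a log axis, ligands first, then receptors and binding proteins; points are single libraries and bars are exact 95% Poisson intervals of the recovered fragments, which cover counting error only. Rat 35 holds the highest point of every gene but Igf1r, where rats 35 and 70 are at 4.15 and 4.16 FPKM, but its interval overlaps that of rat 70 for Igfbp3 and that of rat 19 for Igfbp5.

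Igf1 showed the widest range of the 10 genes (chromosome 7, 28412198 to 28486609, Rnor 6.0). Its level was 5.68, 55.96 and 4.16 FPKM, resting on 102, 1062 and 77 fragments. Rat 35 was far above the other 2 rats, which lay close to each other. The level in rat 35 was 9.84 times that of rat 19 (95% counting interval 8.03 to 12.2) and 13.4 times that of rat 70 (10.7 to 17.2). These intervals compare single libraries and cover counting error only, and both ratios share rat 35. Among all genes by level, Igf1 stood at place 1368 of 30957 in rat 35, against places 9800 and 10504 in rats 19 and 70.

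Igf2 (chromosome 1, 215828102 to 215846911) had the same order of rats with other distances between them. It was at 39.2, 63.3 and 10.04 FPKM, on 3593, 6132 and 948 fragments. Rats 35 and 19 were both high and rat 70 was low, with rat 35 at 1.61 times rat 19 (1.55 to 1.68) and 6.31 times rat 70 (5.89 to 6.76). The ligand mix therefore differed between rats: Igf1 was at 0.145, 0.884 and 0.415 times the level of Igf2 in rats 19, 35 and 70. Igf2 was the more abundant ligand transcript in each rat, and the mean log2 ratio of Igf1 to Igf2 was -1.41 ± 1.31 (SD, n = 3). In rat 35 the 95% counting intervals of the 2 ligands, 52.6 to 59.4 FPKM for Igf1 and 61.7 to 64.9 FPKM for Igf2, did not overlap.

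The receptors varied less. Igf1r (chromosome 1, 128924966 to 129206516) was at 2.16, 4.15 and 4.16 FPKM, on 138, 280 and 274 fragments. Rats 35 and 70 were alike, with a ratio of 0.996 (0.840 to 1.18), and rat 19 was lower. Igf2r (chromosome 1, 48176106 to 48264477) was at 8.47, 21.3 and 12.6 FPKM, highest in rat 35 and lowest in rat 19, a 2.52-fold span (2.36 to 2.70). Igf2r exceeded Igf1r 3.92-, 5.15- and 3.03-fold within rats 19, 35 and 70, a mean log2 ratio of 1.98 ± 0.38 (SD, n = 3), so the order of the 2 receptors was the same in every rat.

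Set against the receptors, the ligand transcripts differed by rat. Igf1 was at 2.63 times Igf1r in rat 19, 13.5 times in rat 35 and 0.9995 times in rat 70, where both genes were at 4.16 FPKM. Igf2 was at 4.63, 2.96 and 0.796 times Igf2r in rats 19, 35 and 70. In rat 70 Igf2 was below Igf2r (9.41 to 10.7 FPKM against 12.04 to 13.2 FPKM, 95% counting intervals) but above Igf1r, its signalling receptor (3.68 to 4.69 FPKM).

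Among the binding proteins, Igfbp2 (chromosome 9, 80118029 to 80144789), a major binding protein of the brain, was at 103, 410 and 80.7 FPKM. Rat 35 was far above the others, at 3.99 times rat 19 (3.80 to 4.18) and 5.09 times rat 70 (4.83 to 5.37). Igfbp7 (chromosome 14, 33010300 to 33070190), which binds the ligands with low affinity and is known from the walls of vessels, was at 172, 382 and 133 FPKM. It had the same order of rats in a narrower range, 2.22 times rat 19 (2.13 to 2.32) and 2.87 times rat 70 (2.74 to 3.01) in rat 35. The span of Igfbp7 overlaps that of Polr2b, an RNA polymerase subunit gene on the opposite strand at 17.6, 23.1 and 21.2 FPKM. It also overlaps that of Rpl39, on the opposite strand and listed at 0 in every rat. Whether exons of these genes overlap was not examined. Fragments from any stretch shared by 2 transcripts cannot be told apart without strand information, which the sources used here do not state.

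The places of Igfbp2 and Igfbp7 were exchanged in rat 35. Igfbp2 was at 0.599 and 0.606 times Igfbp7 in rats 19 and 70, and at 1.08 times Igfbp7 in rat 35, where the counting intervals of 402 to 419 FPKM for Igfbp2 and 373 to 391 FPKM for Igfbp7 did not overlap. In rat 35 they ranked 137 and 151 among all 30957 genes, against 598 and 314 in rat 19 and 824 and 415 in rat 70.

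In Igf1, Igfbp2 and Igfbp7 rat 35 stood well above the others, while rat 19 was at 1.37, 1.28 and 1.29 times rat 70. Their promoter windows are shown for that reason, although Igf2, Igfbp4, Igfbp5 and Igfbp6 also had rat 35 highest and rat 70 lowest. Each runs from 250 bases before to 50 bases after the gene start of RefSeq on GRCr8, a later build than the Rnor 6.0 of the values, and is written along the + strand at chr7:24172282-24172581 for Igf1, chr9:81864561-81864860 for Igfbp2 and chr14:31091486-31091785 for Igfbp7. Capitals mark the GC box GGGCGG or its complement CCGCCC, the one motif of those searched that these windows hold.
Igf1: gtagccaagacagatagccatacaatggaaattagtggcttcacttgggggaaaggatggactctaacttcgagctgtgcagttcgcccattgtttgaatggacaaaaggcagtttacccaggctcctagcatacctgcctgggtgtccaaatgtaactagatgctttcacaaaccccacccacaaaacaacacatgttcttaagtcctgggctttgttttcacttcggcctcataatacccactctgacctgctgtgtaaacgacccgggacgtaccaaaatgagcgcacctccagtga
Igfbp2: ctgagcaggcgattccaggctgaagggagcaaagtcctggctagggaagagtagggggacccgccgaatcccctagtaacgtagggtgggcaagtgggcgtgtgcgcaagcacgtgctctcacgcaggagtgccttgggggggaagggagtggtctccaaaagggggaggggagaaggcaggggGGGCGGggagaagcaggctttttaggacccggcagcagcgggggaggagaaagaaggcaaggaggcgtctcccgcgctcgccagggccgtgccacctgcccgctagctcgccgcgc
Igfbp7: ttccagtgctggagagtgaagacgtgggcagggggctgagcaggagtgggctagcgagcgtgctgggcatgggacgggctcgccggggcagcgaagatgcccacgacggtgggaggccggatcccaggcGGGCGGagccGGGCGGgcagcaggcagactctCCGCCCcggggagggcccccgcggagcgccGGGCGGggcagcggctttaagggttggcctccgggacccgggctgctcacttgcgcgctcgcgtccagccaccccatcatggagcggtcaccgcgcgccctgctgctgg
The GC box was absent from the Igf1 window, stood once in the Igfbp2 window and 4 times in the Igfbp7 window. The G and C content was 48.3%, 66.7% and 74.3% in the windows of Igf1, Igfbp2 and Igfbp7, against a median of 51.7% over 33469 promoter windows of the same length. RefSeq windows matched all 10 genes, with 11 windows because Igf2 has 2. A GC box stood in windows of 5 genes (Igf2, Igf1r, Igf2r, Igfbp2 and Igfbp7) and in 33.1% of all promoters. The TATA box TATAAA or its complement TTTATA stood in the window of Igfbp4 and in 14.2% of all promoters, and CCAAT or ATTGG in none of the 10 genes and in 37.5% of all promoters. Both strands were searched and overlapping matches were counted apart. A match is a run of letters and not a binding site.

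Igfbp5 (chromosome 9, 80150211 to 80167033), which binds the extracellular matrix as well as the ligands, was at 40.5, 42.8 and 12.8 FPKM. Rats 19 and 35 lay within 1.06-fold of each other (1.01 to 1.10) and rat 70 was low, at 0.317 times rat 19 (0.298 to 0.336). Igfbp2 and Igfbp5 are neighbours on chromosome 9, on opposite strands with their ends facing each other across 5421 bases that hold no other listed gene. Their ratio differed between rats, with Igfbp2 at 2.54, 9.60 and 6.29 times Igfbp5 in rats 19, 35 and 70.

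Igfbp4 and Igfbp6 were graded over the rats. Igfbp4 (chromosome 10, 86950557 to 86962578), which mostly restrains ligand action, was at 8.03, 19.99 and 2.86 FPKM. The recovered fragments were 68, 179 and 25, the fewest recovered for the 10 genes. They were read at a length of 544 bases, the shortest that fitted, and may be a divisor of the true numbers. The counting intervals of 6.24 to 10.2, 17.2 to 23.1 and 1.85 to 4.23 FPKM did not overlap. Igfbp6 (chromosome 7, 143749221 to 143754054), which prefers Igf2 over Igf1, was at 10.8, 19.6 and 6.88 FPKM, with intervals of 9.30 to 12.5, 17.6 to 21.8 and 5.69 to 8.24 FPKM that did not overlap either.

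Igfbp3 (chromosome 14, 87457647 to 87465374), the main carrier of the ligands in blood, was at 3.95, 8.15 and 7.71 FPKM. Rats 35 and 70 were alike, with a ratio of 1.06 (0.900 to 1.24), and rat 19 was lower. Igfbp3 and Igf1r were the 2 genes in which the counting interval of the ratio of rats 35 and 70 included 1. These intervals cover counting error only and can exclude 1 at small differences, as for Igfbp5 at 1.06 for rats 35 and 19. They were not computed for other genes, so no share over all genes can be set beside them.

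Summed over the 6 binding proteins, the level was 338, 883 and 244 FPKM. The summed ligands were at 44.9, 119 and 14.2 FPKM. Binding protein transcripts exceeded ligand transcripts 7.53-fold in rat 19, 7.40-fold in rat 35 and 17.2-fold in rat 70, a mean log2 ratio of 3.30 ± 0.69 (SD, n = 3). Rats 19 and 35 were alike in this ratio although their summed levels differed, and rat 70 stood higher. Without Igfbp7 the ratio was 3.70, 4.201 and 7.81, with rat 70 again the highest.

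**Figure D2:**
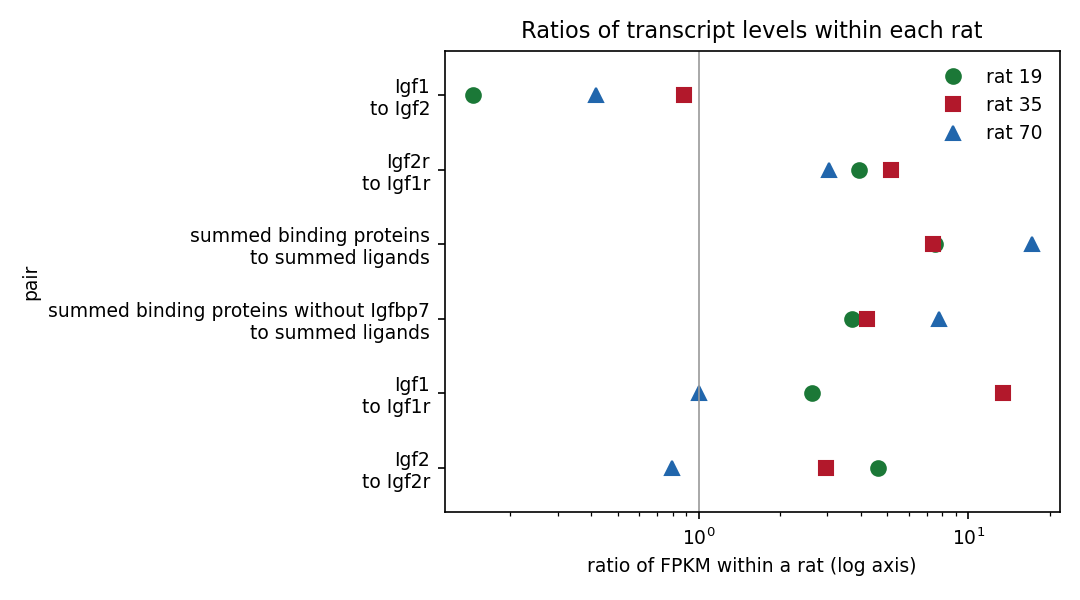
Ratios of FPKM within each rat on a log axis, with 1 point per rat and the vertical line at a ratio of 1. Igf1 lies below Igf2 in all 3 rats, Igf2r above Igf1r in all 3, and the summed binding proteins exceed the summed ligands 7.53-, 7.40- and 17.2-fold in rats 19, 35 and 70.

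Igfbp7 and Igfbp2 together made up 81.3%, 89.7% and 87.6% of the summed binding protein FPKM. Igfbp7 held 50.8%, 43.2% and 54.5% (49.5 ± 5.76%, SD, n = 3), and Igfbp2 held 30.4%, 46.5% and 33.1% (36.7 ± 8.61%). Igfbp5 had its largest share in rat 19, at 11.98%, against 4.84% and 5.25% in rats 35 and 70. The shares of Igfbp3 (1.17%, 0.924% and 3.16%), Igfbp4 (2.38%, 2.26% and 1.17%) and Igfbp6 (3.20%, 2.22% and 2.82%) were small in every rat. Only the Igfbp3 share was highest in rat 70 among these 3 small shares.

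**Figure D3:**
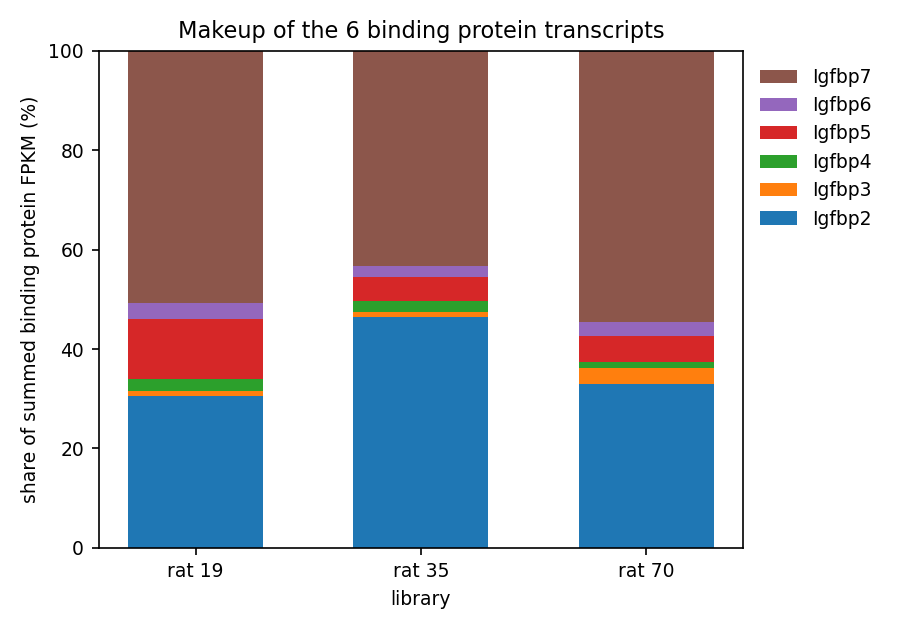
Share of each of 6 genes in the summed binding protein FPKM of rats 19, 35 and 70, in percent; each bar is 1 library and adds up to the whole. Igfbp7 and Igfbp2 fill 81.3%, 89.7% and 87.6% of the bars, and Igfbp2 exceeds Igfbp7 in rat 35 only.

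The 10 genes were compared between rats on log2(FPKM + 1), a scale that understates the differences of low genes. Counted as over 2-fold apart between their highest and lowest rat were 8 of 10 genes, beside 42.5% of the 14134 genes whose mean was at least 1 FPKM. Igf2r was the nearest gene inside this limit, with a range of 1.24, and Igfbp3 the nearest outside it, with 0.89, followed by Igf1r with 0.71. The median range of the 10 genes was 1.59 (log2), beside 0.86 over all genes tested, and Igf1 (3.46), Igf2 (2.54), Igfbp4 (2.44) and Igfbp2 (2.33) had the widest. The ranges of Igf1 and Igf2 exceeded those of 97.2% and 92.0% of the genes tested, and those of Igfbp3 and Igf1r exceeded 51.6% and 41.3%. The number of genes over 2-fold apart was 3 without rat 35 (Igf2, Igfbp4 and Igfbp5), 5 without rat 70 (Igf1, Igf2r, Igfbp2, Igfbp4 and Igfbp7) and 7 without rat 19. The 42.5% holds for 3 rats and not for these counts. Without rat 35, rat 19 was the higher in all 3 genes, beside 6.11% of all genes tested, and rat 70 in none, beside 4.84%. Rat 35 was the higher in the 5 genes, beside 11.7%, and in the 7 genes, beside 19.9%. The shares with rat 35 the lower were not computed.

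**Figure D4:**
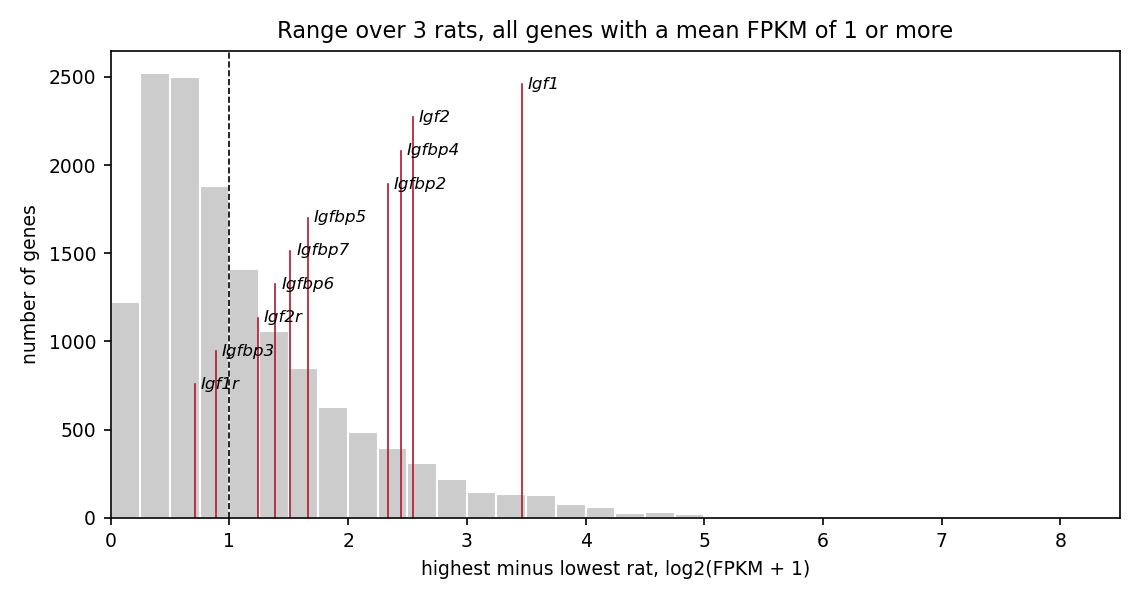
Histogram of the range over 3 rats, highest minus lowest log2(FPKM + 1), for the 14134 genes whose mean was at least 1 FPKM; red lines place the 10 genes and the dashed line marks a range of 1, or 2-fold. Igf1 lies farthest right at 3.46, and Igf1r and Igfbp3 lie left of the dashed line.

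Rat 35 had the highest level of 9 of 10 genes, beside 45.4% of all genes tested, and the lowest of none, beside 36.5%. Igf1r was the exception, at 4.15 FPKM in rat 35 and 4.16 FPKM in rat 70, so rat 70 was highest for 1 gene, beside 29.8%, and rat 19 for none, beside 24.8%. Rat 70 had the lowest level of 7 of 10 genes, beside 44.2%, and rat 19 that of the other 3 (Igf1r, Igf2r and Igfbp3), beside 19.3%. Igfbp3 was highest in rat 70 under each of the 3 rescalings tried, and Igfbp5 was highest in rat 19 when mitochondrial genes were left out of the library sum. Since the genes were chosen with these values known, nothing follows from the counts about the gene family.

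Pairs of rats showed where the differences lay. On log2(FPKM + 1), rat 35 was over 2-fold above rat 19 in 5 of 10 genes (Igf1, Igf2r, Igfbp2, Igfbp4 and Igfbp7), beside 11.7% of all genes tested. Igfbp3 fell short on this scale, although its FPKM in rat 35 was 2.06 times that of rat 19. Rat 35 was over 2-fold above rat 70 in 7 of 10 (Igf1, Igf2, Igfbp2, Igfbp4, Igfbp5, Igfbp6 and Igfbp7), beside 19.9%. Rat 19 was over 2-fold above rat 70 in 3 of 10 (Igf2, Igfbp4 and Igfbp5), beside 6.11%, and rat 70 over 2-fold above rat 19 in none, beside 4.84%.

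Markers of several cell types moved with rat 35, and their part in these values was not tested. Of all genes tested, 45.4% were highest in rat 35. Fibroblast and meningeal markers had summed levels of 268, 2676 and 225 FPKM, and all 6 that passed the minimum were highest in rat 35, while Col1a2 and Ogn were listed at 0 in every rat. Microglia markers were at 444, 1350 and 248 FPKM in sum, with all 8 highest in rat 35. Pericyte and smooth muscle markers were at 133, 333 and 95.03 FPKM, again with all 8 highest there, and endothelial markers at 152, 282 and 115 FPKM, with all 7 measured highest there.

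Igf1 can be set beside these sums. Rat 35 exceeded rats 19 and 70 by 9.84- and 13.4-fold for Igf1, 13.1- and 10.6-fold for the phagocyte sum, 10.003- and 11.9-fold for the fibroblast sum and 3.04- and 5.44-fold for the microglia sum. Igfbp7, at 2.22- and 2.87-fold, stood beside 2.51- and 3.504-fold for the pericyte sum and 1.86- and 2.45-fold for the endothelial sum. All these ratios share rat 35, and the sums weigh abundant members most. In rat 35 Spp1 alone was at 4161 of the 8874 FPKM of the phagocyte sum, and Col3a1 at 1086 of the 2676 FPKM of the fibroblast sum. Some members differed less between rats than their sums, such as Lpl of the phagocyte list at 11.6, 59.4 and 18.1 FPKM and Slc6a13 of the fibroblast list at 10.6, 16.5 and 5.31 FPKM.

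Beside Igf2, at 39.2, 63.3 and 10.04 FPKM, the members of the fibroblast and meningeal list differed among themselves. Of the 6 that passed the minimum, 4 were lowest in rat 70, as Igf2 was, and 2 in rat 19. Over all genes tested these shares were 44.2% and 19.3%. The collagen gene Col1a1 was at 72.8, 754 and 80.6 FPKM and Lum, which encodes the proteoglycan lumican, at 36.4, 494 and 38.2 FPKM, both lowest in rat 19. Aldh1a2, an enzyme gene of retinoic acid synthesis, was at 25.1, 47.3 and 9.11 FPKM and Slc6a13, a GABA transporter gene, at 10.6, 16.5 and 5.31 FPKM, both lowest in rat 70. Col3a1, at 81.7, 1086 and 68.3 FPKM, and Dcn, at 40.9, 278 and 23.5 FPKM, were also lowest in rat 70. In both, unlike Igf2, rat 35 was far above rat 19. These comparisons were made after the values were seen.

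The choroid plexus markers also differed among themselves. Of the 6 that passed the minimum, 3 were highest in rat 35, 2 in rat 70 and 1 in rat 19. Over all genes tested these shares were 45.4%, 29.8% and 24.8%. Ttr, which encodes transthyretin, was at 33.1, 0.173 and 362 FPKM, highest in rat 70, and made up most of the summed level of 42.0, 23.7 and 372 FPKM. The water channel gene Aqp1 was at 2.43, 10.2 and 3.37 FPKM and the bicarbonate transporter gene Slc4a5 at 1.41, 9.43 and 1.70 FPKM. Both were highest in rat 35, as Igf2 was, but lowest in rat 19, whereas Igf2 was lowest in rat 70. Folr1, at 1.57, 2.09 and 2.02 FPKM, had the same highest and lowest rats as Aqp1. Clic6 was highest in rat 70 and Kcne2 in rat 19.

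The summed markers of neurons, astrocytes and oligodendrocytes were lowest in rat 35, and the part of these cells in the values was not tested. Of the 8 astrocyte markers, 6 were lowest in rat 35 and none was highest there, with summed levels of 3226, 1043 and 2192 FPKM. Of all genes tested, 36.5% were lowest and 45.4% highest in rat 35. Igfbp2 was highest there. The other 2 astrocyte markers were lowest in rat 70, as Igfbp2 was. These were Aqp4 at 113, 54.6 and 16.9 FPKM and Aldh1l1 at 12.4, 4.23 and 3.19 FPKM. Oligodendrocyte markers summed to 4031, 3305 and 5447 FPKM, with none of 6 highest in rat 35.

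**Figure D5:**
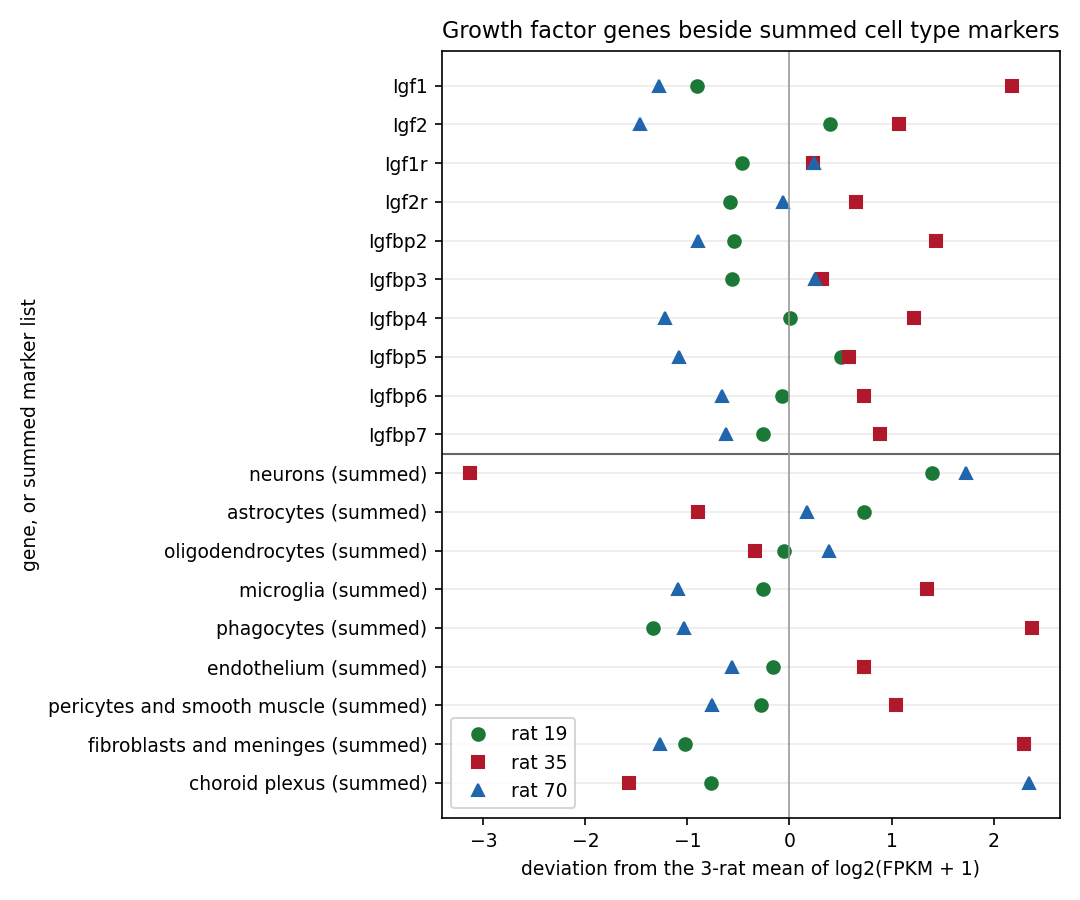
Deviation of each rat from the 3-rat mean of log2(FPKM + 1) for the 10 genes (above the line) and for the summed markers of 9 cell type lists (below it), with 1 point per rat. Rat 35 lies right of the other rats for 9 genes and for phagocytes, microglia, fibroblasts, pericytes and endothelium, and left of them for neurons, astrocytes, oligodendrocytes and choroid plexus.

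Other genes of the pathway were taken from 5 lists of 43 genes in all, of which 32 reached a mean of 1 FPKM. Of these 32, 15 were over 2-fold apart between rats, beside the 42.5% of all genes tested given above, and 13 were highest in rat 35, beside 45.4%. The relatives of the ligands and receptors were low. The insulin receptor gene Insr, at 4.69, 8.27 and 5.77 FPKM, was above Igf1r in every rat, and the growth hormone receptor gene Ghr was at 3.48, 11.2 and 3.75 FPKM. The insulin gene Ins1 was listed at 0 in all rats, and Ins2, which lies 10059 bases from Igf2 on the same strand, at 0.432, 3.95 and 0 FPKM. Igfals, which forms the circulating complex of ligand and Igfbp3, did not exceed 0.0826 FPKM in any rat.

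The remaining genes named for binding these factors or their RNA did not exceed 2.32 FPKM. Igfbp1 was at 0.294, 0 and 0.326 FPKM and Igfbpl1, a binding-protein-like gene, at 1.31, 0 and 0.751 FPKM. Exact zeros can be failed estimates. Igf2bp2, whose product binds RNAs including that of Igf2 and is not related to the Igfbp proteins, was at 2.32, 1.05 and 0.363 FPKM. Its relative Igf2bp3 was at 0.0789, 1.17 and 0.357 FPKM, highest in rat 35, while Igf2bp1 was listed at 0 in every rat.

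Of the proteases that act on the binding proteins, Htra1, a secreted serine protease, was by far the most abundant, at 51.5, 222 and 139 FPKM. The metalloprotease gene Adamts1 was at 5.59, 12.2 and 6.46 FPKM, and both were highest in rat 35 and lowest in rat 19. Pappa, whose product cleaves Igfbp4, was at 0, 0.0706 and 0.176 FPKM, and its relative Pappa2 did not exceed 0.215 FPKM. Their inhibitors Stc1 and Stc2, the stanniocalcin genes, were at 1.41, 1.22 and 1.91 FPKM and at 0.578, 0.351 and 0.880 FPKM, lowest in rat 35.

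Genes of signalling behind the receptor were taken as 2 lists. The median level was 18.5, 13.9 and 20.8 FPKM for adaptors and kinases, and 14.5, 17.4 and 14.4 FPKM for growth targets of Akt. Of 15 adaptor and kinase genes, 14 passed the minimum, and 5 of these were over 2-fold apart, beside 42.5% of all genes tested. The median range of the 14 was 0.49 (log2), against 0.86 over all genes tested. Akt1, the kinase gene with the highest mean of the list, was at 68.9, 94.2 and 67.4 FPKM. Shc1, an adaptor of receptor tyrosine kinases, had the widest range and was highest in rat 35, at 31.4, 81.9 and 16.6 FPKM. Irs2, which couples the insulin and growth factor receptors to phosphoinositide 3-kinase, was lowest there, at 9.64, 5.48 and 17.5 FPKM, while its relative Irs1 was at 1.42, 2.42 and 1.98 FPKM.

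Of 11 genes of the growth machinery under Akt, 5 were over 2-fold apart, beside 42.5% of all genes tested. Their median range was 0.60 (log2), against 0.86 over all genes tested. Rheb, the GTPase that activates mTOR, had the highest mean of this list, at 101, 78.3 and 80.7 FPKM. Eif4ebp1, a repressor of translation that mTOR inactivates, was at 15.7, 35.3 and 9.29 FPKM, highest in rat 35. Gsk3a, a kinase that Akt inhibits, was at 62.2, 33.3 and 92.3 FPKM, lowest in rat 35. The level of Mtor itself was 13.0, 9.84 and 14.4 FPKM.

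Genes with the pattern most like that of Igf1, Igf2 and Igfbp2 were sought among the 9671 named genes whose mean was at least 5 FPKM, by the Euclidean distance of their deviations on log2(FPKM + 1) over the 3 rats. Nearest to Igf1 were Inmt, an indolethylamine N-methyltransferase gene, at 6.44, 63.9 and 4.55 FPKM (distance 0.06), Ifitm1 at 49.7, 392 and 37.0 FPKM (0.10) and Cd68, a macrophage gene of the phagocyte list, at 60.9, 468 and 42.9 FPKM (0.12). Nearest to Igf2 were Troap at 6.07, 10.2 and 0.939 FPKM, Cmtm7 at 21.5, 34.0 and 4.96 FPKM, and Tmem176b at 212, 343 and 55.8 FPKM. Nearest to Igfbp2, the binding protein with the largest SD, were the integrin gene Itga5 at 7.46, 32.2 and 5.67 FPKM, Rarres1 at 7.12, 30.4 and 5.37 FPKM and the chemokine receptor gene Cxcr4 at 2.89, 14.4 and 1.98 FPKM. This scale understates the differences of low genes. In FPKM, the rats differed by a larger factor in Troap than in Igf2, and in Cxcr4 than in Igfbp2. With only 3 rats many genes share a pattern: 48 genes lay within 0.5 of Igf1, 104 of Igf2 and 380 of Igfbp2.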

How the data were processed

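Messenger RNA of the motor cortex was sequenced from 3 rats of 1 group, taken as separate animals from their numbers. The deposited values are FPKM: per the labels' design text, the authors made them with a Perl script from normalized fragment counts per gene, and the way of normalizing is not described. The submitters' processing notes list HISAT2 2.0.4, StringTie 1.3.0 and the build Rnor 6.0, with no roles. FPKM is per gene length, so genes can be compared within a rat, and no count model was used. Exact zeros can be failed estimates, since Hprt1, Rps6 and Rpl8 were listed at 0 in all rats.

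The value of 1 fragment (0.0643, 0.0608 and 0.0623 FPKM on 1 kb in rats 19, 35 and 70) was read from short genes. Each gene's fragments are those of the shortest length, from 100 to 20000 bases, at which the number of fragments was whole, to within 0.005, in every rat. They may be a divisor of the true number, which makes the exact 95% intervals (Poisson for levels, Clopper-Pearson for ratios) too wide rather than too narrow. Without molecular identifiers fragments are not independent molecules.

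Differences between rats used log2(FPKM + 1) and a limit of 2-fold, over genes whose mean was at least 1 FPKM. Ratios and shares used FPKM. With 1 group, mean and SD over 3 rats are given without a test. The genes, lists and settings were chosen with earlier results of these data known. Named in the text are all 10 genes, in each pathway list the 2 highest by mean and by SD with others where a role needed them, and the 3 genes nearest in pattern to Igf1, Igf2 and the binding protein with the largest SD, leaving out clone and locus names. Alternatives were a pseudocount of 0.1, a mean FPKM of 5 or no minimum, 3 rescalings, log2(FPKM + 1) differences in place of ratios, sums without Igfbp7, and leaving out each rat. Promoter windows are RefSeq's on GRCr8. Python 3.11.15, numpy 2.4.6, pandas 2.3.3, scipy 1.17.1 and matplotlib 3.10.9 were used.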

Additional observations from a re-analysis of the deposited data

How the results depend on the processing

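The number of genes over 2-fold apart ranged from 3 to 7 when 1 rat was left out (8 with all rats), and was 8 or 9 under the other alternatives, 9 with a pseudocount of 0.1 and after rescaling to a sum of 1000000, where Igfbp3 joined. The number highest in rat 35 was 9 or 10 with another rat left out. It was 8, 8 and 7 with libraries scaled to one sum, by the median of ratios and without mitochondrial genes. Without rat 35 it has no value. Under these alternatives no share over all genes was computed, apart from those for pairs of rats given above. Leaving Igfbp7 out of the binding proteins took the mean log2 ratio to ligands from 3.30 to 2.31, and the mean shares of Igfbp2, Igfbp3, Igfbp4, Igfbp5 and Igfbp6 to 72.2%, 3.65%, 3.80%, 14.8% and 5.54%, which follows from the smaller sum. Left out 1 rat at a time, the mean log2 ratio of Igf1 to Igf2 ranged from -2.03 to -0.72, that of Igf2r to Igf1r from 1.78 to 2.17 and that of binding proteins to ligands from 2.90 to 3.51. Ratios and shares within a rat do not depend on library scaling. The shift of the median gene on scaling to 1000000 was 0.80, 0.85 and 0.96 (log2) in rats 19, 35 and 70. No paired analysis was possible because all rats belong to 1 group. Precision is limited by 3 rats. For Igfbp4 and Igf1 in rat 70 the recovered fragments were 25 and 77, which may be divisors of the true numbers.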
